A study of Mus musculus and Homo sapiens with 32 samples.

Results

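The Zbtb, Zscan and Zkscan genes of the mouse were taken as every gene whose symbol begins with Zbtb, Zscan or Zkscan followed by a number in the deposited m6A tables, which gave 60 of the 11200 genes listed there: 40 Zbtb, 11 Zscan and 9 Zkscan genes. Of these, 58 had at least 1 region in the exomePeak2 table, with 148 of its 33473 regions in all, and 25 had a MeTPeak peak in Mettl3 KO cells and 47 in wild-type cells. Zbtb33 and Zbtb8os were listed with wild-type MeTPeak peaks alone. Symbol and function part at 2 members: Zbtb8os encodes archease, a cofactor of the tRNA ligase complex, and Zbtb11os1 is a noncoding transcript on the strand opposite to Zbtb11. Zbtb16, Zbtb46 and the Zscan4 genes were not among the listed genes and are not described here.

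m6A-CT maps N6-methyladenosine (m6A), a methyl mark that the METTL3 and METTL14 enzyme complex places on RNA, by directing a transposase with an anti-m6A antibody to RNA paired with cDNA in permeable nuclei, and input libraries were tagmented without antibody. The genotype set held C57BL/6 mouse embryonic stem cells labelled Mettl3-/- (KO) and C57BL/6 wild-type cells, each with 2 m6A-CT libraries made with a MilliporeSigma antibody and 2 input libraries. The peak lists came from CF1 mouse embryonic fibroblasts (MEF) at 100K nuclei, from expanded potential stem cells of the E14 line (EPSC) at 100K nuclei, and from the E14 embryonic stem cell line with 5K, 25K or 100K nuclei, each with 2 m6A-CT and 2 input libraries and a Synaptic Systems antibody. The labels give neither the deleted part of Mettl3, nor whether the KO line is 1 clone, nor the number of nuclei of the genotype set, nor whether the libraries of a group came from separate cultures. Antibody, cell line and peak caller therefore all differ between the genotype set and the peak lists. Levels were not compared between them, and only the presence, place and rank order of peaks are set side by side.

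BTB zinc finger proteins (the Zbtb genes) pair a BTB domain, which dimerizes and binds corepressors such as NCOR1 and BCOR or the ubiquitin ligase scaffold CUL3, with C2H2 zinc fingers that read DNA. SCAN zinc finger proteins (Zscan) carry a SCAN domain that pairs them with each other, and Zkscan proteins hold a KRAB domain as well, through which many zinc finger proteins recruit TRIM28 and histone methylation. Several members act in stem cells, in blood cell lineages or at telomeres. In mRNA, m6A is known to lie mostly in long internal exons and near stop codons and to shorten the life of many transcripts.

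The deposited table of the genotype set gave 1 value per group and not per library, so no error between replicates can be given for any value below. Its RPM values (reads scaled to a common column total) corresponded to whole reads, which recovered totals of 37532658 m6A-CT reads and 51031598 input reads in Mettl3 KO cells, against 39310394 m6A-CT reads and 45090626 input reads in wild-type cells. The transcripts Lars2 and Rn45s took 54.5% of the m6A-CT and 81.0% of the input reads in Mettl3 KO cells, against 36.5% of the m6A-CT and 76.4% of the input reads in wild-type cells, so each RPM difference was also computed without them. Intervals below are 95% counting intervals from the reads of each column. They cover counting error alone, since amplified reads carry no molecular identifiers and several may stem from 1 molecule. Mettl3 itself had 5.33 m6A-CT and 2.47 input RPM in Mettl3 KO cells, against 1.5 m6A-CT and 1.71 input RPM in wild-type cells. Its input was thus not lower in the cells labelled KO. Since the deleted part is not given, these regions do not check the label. Among stem cell markers, 8 of 10 had regions with a summed input of 670 RPM in Mettl3 KO cells and 1048 RPM in wild-type cells, and 4 of 10 fibroblast markers summed to 3.98 RPM in Mettl3 KO cells and 3.57 RPM in wild-type cells.

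Enrichment of m6A-CT over input was lower in Mettl3 KO cells in nearly every member region. The authors' deposited table lists 148 of 148 member regions with a negative log2 fold change of m6A-CT over input past an FDR of 0.05, where the share over all regions was 89% lower and 11% higher. The table holds almost only regions past that FDR, 99.8% of them, so a member entered it through this same contrast and the count describes the listed regions rather than the genes. By RPM alone 146 of the 148 regions were lower, with Zbtb11os1 and the first Zscan10 region slightly higher. The counting interval lay below 0 in 131, or in 111 without Lars2 and Rn45s, and no share over all regions is given for these interval counts. With the region of most reads standing for each gene, 58 of 58 members were lower in the authors' deposited table. The share was 97.0% of the Zfp genes and 87.7% of all genes. Their median log2 fold change there was -1.67, against -1.44 over the Zfp genes and -1.33 over all genes of the authors' deposited table. The medians of the 3 families in the authors' deposited table were -1.58 for Zbtb, -1.80 for Zscan and -1.84 for Zkscan genes.

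The same direction held on the plain RPM scale, where 57 of 58 members had a lower m6A-CT over input ratio in Mettl3 KO cells. This stood beside 262 of 271 Zfp genes and 84.6% of all genes. Without Lars2 and Rn45s the count of members was again 57, beside 258 of 271 Zfp genes and 79.8% of all genes. The member that was the exception in both was Zbtb11os1. The counting interval lay below 0 in 55 members, and in 48 without Lars2 and Rn45s. No share over all genes is given for these interval counts. The most-read regions held a median of 1134 reads in the members and 513 over all genes, and more reads give narrower intervals. The median ratio over the members was 2.24 in Mettl3 KO cells and 5.71 in wild-type cells, and over all genes it was 2.02 in Mettl3 KO cells and 3.66 in wild-type cells. The members thus stood above the typical gene in wild-type cells and close to it in Mettl3 KO cells. The Zfp genes were higher still, with a median ratio of 3.08 in Mettl3 KO cells and 6.95 in wild-type cells. A ratio over 1 was seen in Mettl3 KO cells in 55 of the 58 members, beside 81.4% of all genes, and in wild-type cells in 58 of 58, beside 89.6% of all genes. How many members lie over 1 depends on the scale. Without Lars2 and Rn45s the median ratio over the members was 0.934 in Mettl3 KO cells and 2.13 in wild-type cells, and over all genes 0.848 in Mettl3 KO cells and 1.38 in wild-type cells. A ratio over 1 was then left in Mettl3 KO cells in 27 members, beside 40.4% of all genes, and in wild-type cells in 51, beside 62.8% of all genes. The count of 51 rests on log2 values with 0.5 reads added. The members then below 1 in wild-type cells on that scale were Zbtb7c, Zbtb8b, Zbtb11os1, Zbtb45, Zscan5b, Zscan10 and Zscan21. Without the added reads the wild-type ratio of Zscan5b lay slightly above 1. Ratios in the text and in the plot of enrichment by gene use the deposited totals, so they compare genes and genotypes and do not fix a level of no enrichment. The authors' log2 fold changes lie below these RPM differences by a median of 0.50, an offset whose cause was not tested. Sizes are therefore given on the RPM scale unless the authors' deposited table is named.

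**Figure D1:**
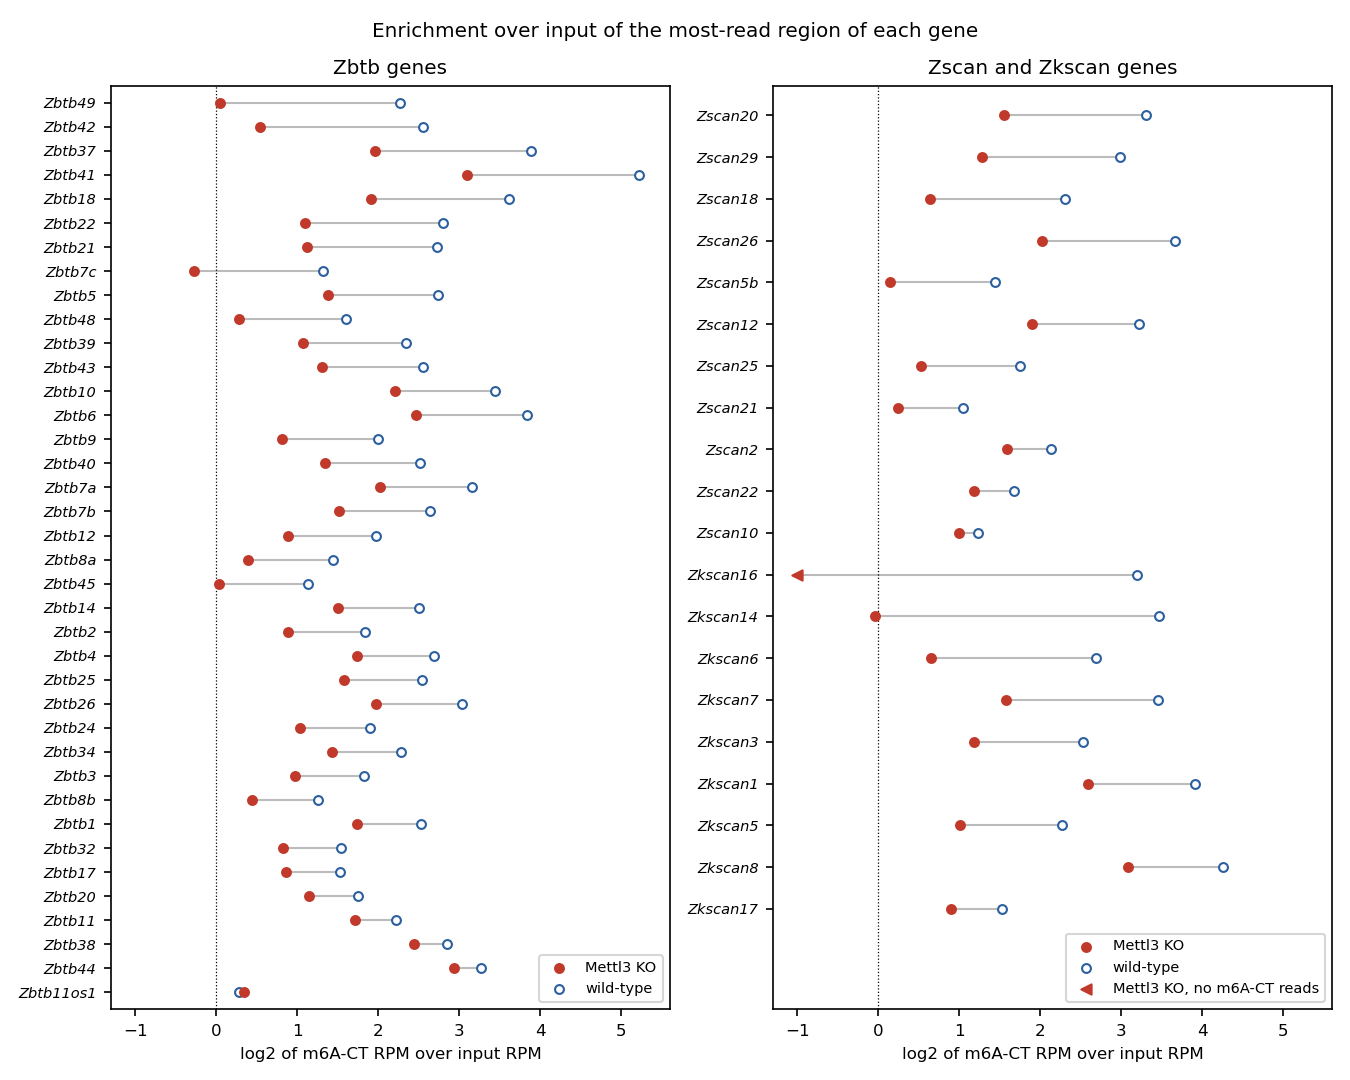
Each row is the most-read exomePeak2 region of a gene, and the x axis is log2 of m6A-CT RPM over input RPM. Filled points are Mettl3 KO cells and open points wild-type cells, 1 pooled value each with no replicate error, and the dotted line marks a ratio of 1. The open point lies to the right in every row but Zbtb11os1, and the arrow marks Zkscan16, which had no m6A-CT reads in Mettl3 KO cells.

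The symbol rule did not use the form of the regions. The most-read regions of the members were longer than those of all genes, as were those of the Zfp genes, with a median of 2900 bp. The most-read region was over 1000 bp long in 50 of the 58 members (86.2%), beside 88.2% of the Zfp genes and 51.8% of all genes, and its median length was 2136 bp in the members and 1100 bp over all genes. In 56 members (96.6%) it was listed as a single block, beside 91.1% of the Zfp genes and 93.8% of all genes. Whether a block holds an intron was not checked. Input per length was modest: the median was 1.34 RPM per kb in Mettl3 KO cells and 1.25 RPM per kb in wild-type cells, where all genes had 1.72 RPM per kb in Mettl3 KO cells and 1.77 RPM per kb in wild-type cells. Of the 35 members with over 1 region, the most-read region was the most 3' in 23 (65.7%), against 59.2% of all such genes. The longest regions were the most enriched. The 66 member regions over 1000 bp had a median ratio of 2.39 in Mettl3 KO cells and 5.75 in wild-type cells, the 28 regions of more than 200 and up to 1000 bp had 1.25 in Mettl3 KO cells and 2.88 in wild-type cells, and the 54 regions up to 200 bp had 1.22 in Mettl3 KO cells and 3.73 in wild-type cells. The shortest class was therefore above the middle one in wild-type cells, and the long regions held 82.1% of the members' wild-type m6A-CT reads. No mm9 annotation was used here, so regions were not assigned to coding sequence or untranslated regions.

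Among Zbtb genes with at least 50 reads, the lowest log2 fold changes in the authors' deposited table belonged to Zbtb49, Zbtb42, Zbtb37, Zbtb41, Zbtb18, Zbtb22, Zbtb21, Zbtb7c, Zbtb5 and Zbtb48. Zbtb41 had the highest wild-type ratio among the most-read regions. Its region of 6112 bp at chr1:141343473-141349584 of mm9 held 8.02 m6A-CT and 0.941 input RPM in Mettl3 KO cells, against 26.4 m6A-CT and 0.710 input RPM in wild-type cells. The ratio was 8.53 in Mettl3 KO cells and 37.2 in wild-type cells, and the log2 difference was -2.12 (-2.78 to -1.45). Antibody reads were lower in Mettl3 KO cells, and the input difference was 0.40 (-0.24 to 1.04) on the log2 scale. Among the most-read regions Zbtb41 also had the highest ratio in Mettl3 KO cells, next to 8.50 in Zkscan8.

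Zbtb18, a repressor needed for development of the cerebral cortex, had 13.1 m6A-CT and 3.49 input RPM in Mettl3 KO cells, against 39.4 m6A-CT and 3.22 input RPM in wild-type cells over 4925 bp at chr1:179375968-179380892. Its log2 difference was -1.70 (-2.05 to -1.35). Zbtb21 was among the most deeply read members. It had 31.1 m6A-CT and 14.3 input RPM in Mettl3 KO cells, against 90.2 m6A-CT and 13.7 input RPM in wild-type cells over 5650 bp at chr16:98168599-98174248. Its log2 difference was -1.60 (-1.78 to -1.42), and the log2 fold change of the authors' deposited table was -2.12 (FDR 2.64e-112). Zbtb22 had 9.17 m6A-CT and 4.27 input RPM in Mettl3 KO cells, against 37.5 m6A-CT and 5.41 input RPM in wild-type cells, a log2 difference of -1.69 (-2.0 to -1.38). Which of these genes differed in input depended on the scale. The log2 input difference was 0.12 (-0.20 to 0.43) in Zbtb18, 0.06 (-0.09 to 0.22) in Zbtb21 and -0.34 (-0.60 to -0.08) in Zbtb22. Without Lars2 and Rn45s it was 0.43 (0.11 to 0.74) in Zbtb18, 0.38 (0.22 to 0.53) in Zbtb21 and -0.03 (-0.29 to 0.24) in Zbtb22.

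Zbtb5 had 6.58 m6A-CT and 2.53 input RPM in Mettl3 KO cells, against 22.9 m6A-CT and 3.42 input RPM in wild-type cells, a log2 difference of -1.36 (-1.76 to -0.97). In its most-read region, Zbtb37 had more input in Mettl3 KO cells on both scales. That region had 7.19 m6A-CT and 1.84 input RPM in Mettl3 KO cells, against 12.4 m6A-CT and 0.843 input RPM in wild-type cells. Its log2 difference was -1.90 (-2.48 to -1.32). In the other Zbtb37 regions the log2 input differences on the deposited totals were 0.56 (-0.15 to 1.27) and 0.37 (-0.42 to 1.16).

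The remaining 4 rested on few reads. Zbtb49 had 1.49 m6A-CT and 1.45 input RPM in Mettl3 KO cells, against 4.6 m6A-CT and 0.954 input RPM in wild-type cells, a log2 difference of -2.21 (-2.91 to -1.52). Its ratio was 1.03 in Mettl3 KO cells and 4.83 in wild-type cells. Another Zbtb49 region, with 294 reads, had a ratio of 3.90 in Mettl3 KO cells and 7.73 in wild-type cells. The log2 difference there was -0.98 (-1.84 to -0.11), and without Lars2 and Rn45s its interval ran from -1.67 to 0.05. Zbtb42, known in skeletal muscle, held 164 reads in all, with 0.826 m6A-CT and 0.568 input RPM in Mettl3 KO cells, against 2.21 m6A-CT and 0.377 input RPM in wild-type cells. Zbtb7c held 102 reads, and its ratio was 0.826 in Mettl3 KO cells and 2.49 in wild-type cells. Zbtb48, whose protein trims long telomeres, held 117 reads in a region of 50 bp, with a ratio of 1.22 in Mettl3 KO cells and 3.04 in wild-type cells. The counting intervals of these last 3 log2 differences were wide, from -3.02 to -0.95 for Zbtb42, from -2.72 to -0.38 for Zbtb7c and from -2.39 to -0.19 for Zbtb48. For the 4 genes the authors' deposited table gave FDR values of 3.38e-13, 4.82e-05, 0.00405 and 0.0112.

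Of the members that bind methylated CpG sites, Zbtb38 and Zbtb4 had a region. Zbtb38, read from 3981 reads, had 26.0 m6A-CT and 4.80 input RPM in Mettl3 KO cells, against 60.6 m6A-CT and 8.38 input RPM in wild-type cells over 3600 bp at chr9:96585842-96589441. Both kinds of reads were lower in Mettl3 KO cells, so the ratio was 5.41 there and 7.23 in wild-type cells, a log2 difference of -0.42 (-0.67 to -0.16). Without Lars2 and Rn45s its interval ran from -0.51 to 0.0041. Zbtb4 had 3.60 m6A-CT and 1.08 input RPM in Mettl3 KO cells, against 7.89 m6A-CT and 1.22 input RPM in wild-type cells, a log2 difference of -0.95 (-1.56 to -0.34). Zbtb33, which encodes Kaiso, had no exomePeak2 region and 3 MeTPeak peaks in wild-type cells, of 4.50-fold at most.

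Of 9 genes listed as regulators of blood cells, 7 had a region and all 7 were lower in the authors' deposited table, beside 87.7% of all genes. Their median log2 fold change in the authors' deposited table was -1.29, close to the -1.33 of all genes. Zbtb7a, a repressor of fetal globin in human erythroid cells, had 16.5 m6A-CT and 4.06 input RPM in Mettl3 KO cells, against 52.6 m6A-CT and 5.88 input RPM in wild-type cells. Its log2 difference was -1.14 (-1.43 to -0.85). Zbtb7b, which encodes the CD4 T cell factor ThPOK, had 11.1 m6A-CT and 3.88 input RPM in Mettl3 KO cells, against 31.4 m6A-CT and 5.03 input RPM in wild-type cells, a log2 difference of -1.13 (-1.45 to -0.81). Zbtb1, needed for lymphocyte development, had 14.2 m6A-CT and 4.27 input RPM in Mettl3 KO cells, against 26.0 m6A-CT and 4.52 input RPM in wild-type cells. Zbtb17, whose protein Miz-1 partners MYC, and Zbtb20, a repressor of alpha-fetoprotein in liver, had log2 differences of -0.66 (-1.27 to -0.05) and -0.60 (-1.32 to 0.13). The interval of Zbtb20 included 0, although the authors' deposited table lists it past the FDR at 0.018. Without Lars2 and Rn45s the interval of Zbtb17 included 0 too, from -1.10 to 0.12.

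Zbtb10, which binds variant telomere repeats, had 5 regions, and its first, at chr3:9250567-9252066, held most reads. It had 29.1 m6A-CT and 6.27 input RPM in Mettl3 KO cells, against 44 m6A-CT and 4.04 input RPM in wild-type cells, a log2 difference of -1.23 (-1.51 to -0.95). The other 4 regions had ratios of 4.88, 10.4, 8.37 and 9.87 in Mettl3 KO cells, against 13.7, 41.5, 23.0 and 23.1 in wild-type cells. By these values the 3 regions nearest the 3' end were more enriched than the first 2 in both genotypes. The regions with 41.5 and 23.0 held few input reads, 18 and 19 in Mettl3 KO cells, against 9 and 14 in wild-type cells. Zscan10, a regulator of pluripotency in mouse stem cells, was read at 6228 reads and changed little. It had 46.4 m6A-CT and 23.3 input RPM in Mettl3 KO cells, against 56.4 m6A-CT and 24.0 input RPM in wild-type cells, a log2 difference of -0.24 (-0.39 to -0.09), and without Lars2 and Rn45s its interval ran from -0.22 to 0.08. Zbtb24, mutated in human ICF syndrome, had 8.93 m6A-CT and 4.35 input RPM in Mettl3 KO cells, against 10.3 m6A-CT and 2.77 input RPM in wild-type cells. Its log2 difference was -0.86 (-1.24 to -0.48).

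Zbtb44 had the most reads of all members, 14983 in a region of 7138 bp at chr9:30876333-30883470, and a small change. It had 105.0 m6A-CT and 13.8 input RPM in Mettl3 KO cells, against 234.9 m6A-CT and 24.5 input RPM in wild-type cells. Antibody and input reads were both lower in Mettl3 KO cells, the ratio was 7.62 there and 9.60 in wild-type cells, and the log2 difference was -0.33 (-0.48 to -0.19). The log2 fold changes of its 6 regions in the authors' deposited table ran from -0.79 to -0.47. Zbtb11 was similar in its most-read region, with a ratio of 3.27 in Mettl3 KO cells and 4.64 in wild-type cells, but its 8 regions ran from -3.16 to -0.75 in the authors' deposited table. The region with -0.75 overlaps Zbtb11os1 on the other strand, and without stranded counts the reads of both cannot be told apart. Zbtb11os1 itself had 4.77 m6A-CT and 3.76 input RPM in Mettl3 KO cells, against 5.47 m6A-CT and 4.50 input RPM in wild-type cells. Its ratio of 1.27 in Mettl3 KO cells and 1.21 in wild-type cells differed by less than the counting error.

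Among Zscan genes the lowest log2 fold changes in the authors' deposited table belonged to Zscan20, Zscan29, Zscan18, Zscan26 and Zscan5b. Zscan26 was the deepest of them, with 19.8 m6A-CT and 4.88 input RPM in Mettl3 KO cells, against 61.6 m6A-CT and 4.88 input RPM in wild-type cells over 3625 bp at chr13:21534050-21537674. The ratio was 4.05 in Mettl3 KO cells and 12.6 in wild-type cells, and the log2 difference was -1.64 (-1.93 to -1.35). This region overlaps 4930470G03Rik on the opposite strand, so reads of that transcript may be counted in it. Zscan20 had 5.92 m6A-CT and 2.02 input RPM in Mettl3 KO cells, against 13.2 m6A-CT and 1.33 input RPM in wild-type cells, a log2 difference of -1.75 (-2.26 to -1.24).

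Zscan29 had 3.52 m6A-CT and 1.45 input RPM in Mettl3 KO cells, against 6.31 m6A-CT and 0.798 input RPM in wild-type cells, a log2 difference of -1.69 (-2.34 to -1.04). Zscan18 had 2.19 m6A-CT and 1.41 input RPM in Mettl3 KO cells, against 4.05 m6A-CT and 0.821 input RPM in wild-type cells, a log2 difference of -1.66 (-2.34 to -0.97). In both genes the input was higher in Mettl3 KO cells beyond counting error. Zscan5b held 102 reads, and its ratio was 1.10 in Mettl3 KO cells and 2.72 in wild-type cells, a log2 difference of -1.27 (-2.46 to -0.08). Without Lars2 and Rn45s the interval of this difference included 0.

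Among Zkscan genes with at least 50 reads the lowest in the authors' deposited table were Zkscan14, Zkscan6, Zkscan7, Zkscan3 and Zkscan1. Zkscan1, whose human transcript also yields an abundant circular RNA, was the deepest, with 37.9 m6A-CT and 6.31 input RPM in Mettl3 KO cells, against 74.9 m6A-CT and 4.99 input RPM in wild-type cells over 7211 bp at chr5:138541840-138549050. Its ratio was 6.01 in Mettl3 KO cells and 15.0 in wild-type cells, a log2 difference of -1.32 (-1.58 to -1.06). Zkscan3, a repressor of autophagy genes in human cells, had 6.13 m6A-CT and 2.7 input RPM in Mettl3 KO cells, against 11.9 m6A-CT and 2.06 input RPM in wild-type cells, a log2 difference of -1.34 (-1.78 to -0.90). All 5 of its regions were lower, with ratios of 0.597 to 2.27 in Mettl3 KO cells, against 2.74 to 5.76 in wild-type cells.

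Zkscan14 had 30 m6A-CT and 42 input reads in Mettl3 KO cells, against 77 m6A-CT and 8 input reads in wild-type cells. Its ratio was 0.971 in Mettl3 KO cells and 11 in wild-type cells, and the log2 difference was -3.42 (-4.64 to -2.20). Zkscan6 had 2.40 m6A-CT and 1.53 input RPM in Mettl3 KO cells, against 3.00 m6A-CT and 0.466 input RPM in wild-type cells, a log2 difference of -2.01 (-2.81 to -1.22). Zkscan7 had 0.586 m6A-CT and 0.196 input RPM in Mettl3 KO cells, against 3.41 m6A-CT and 0.310 input RPM in wild-type cells, a log2 difference of -1.87 (-3.18 to -0.55). Zkscan16 held 21 reads, none of them m6A-CT in Mettl3 KO cells and 16 in wild-type cells. With a floor of 3 reads its m6A-CT RPM was at least 5.09-fold lower in Mettl3 KO cells. A region of 75 bp in Zbtb43 was also without m6A-CT reads in Mettl3 KO cells, against 39 in wild-type cells, and at least 12.4-fold lower by the same floor.

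Input reads tell how much RNA of each region was tagmented without antibody, and in bulk samples fewer cells with a transcript and less RNA per cell cannot be told apart. Input was higher in Mettl3 KO cells beyond counting error in 19 of 58 members, beside 20.1% of all genes, and lower in 11, beside 28.9% of all genes. Without Lars2 and Rn45s it was higher in 33, beside 35.9% of all genes, and lower in 2, beside 16.2% of all genes, and those 2 were Zbtb44 and Zbtb38. On the deposited totals it was higher in 8 and lower in 10 of 38 Zbtb genes, higher in 5 and lower in 0 of 11 Zscan genes, and higher in 6 and lower in 1 of 9 Zkscan genes. The median log2 difference of input was 0.13 over the members and -0.0031 over all genes, and without Lars2 and Rn45s it was 0.44 over the members and 0.31 over all genes. The 5 largest differences upward with at least 50 input reads were those of Zkscan14 (2.14, interval 1.08 to 3.21), Zkscan6 (1.69, 1.00 to 2.38), Zbtb37 (1.12, 0.58 to 1.66), Zkscan17 (0.97, 0.81 to 1.12) and Zscan29 (0.85, 0.28 to 1.42). Zkscan17, whose protein binds the histone methyltransferase NSD1 in mouse, was the best measured, with 20.2 input RPM in Mettl3 KO cells and 10.3 in wild-type cells.

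The 5 largest differences downward with at least 50 input reads were those of Zbtb44 (-0.83, -0.96 to -0.69), Zbtb38 (-0.80, -1.03 to -0.57), Zbtb8b (-0.69, -1.22 to -0.15), Zkscan8 (-0.63, -1.22 to -0.05) and Zbtb40 (-0.60, -0.98 to -0.21). Without Lars2 and Rn45s the intervals of Zbtb8b, Zkscan8 and Zbtb40 included 0. For Zbtb44 the input of 13.8 RPM in Mettl3 KO cells and 24.5 RPM in wild-type cells stood beside the most antibody reads of any member. The m6A-CT RPM itself was lower in Mettl3 KO cells in 56 of 58 members, beside 80.0% of all genes, and in 49 without Lars2 and Rn45s, beside 62.1% of all genes. On the deposited totals Zkscan17 and Zbtb20 were the other 2: Zkscan17 had 37.5 m6A-CT RPM in Mettl3 KO cells and 29.7 in wild-type cells, and its input was higher by a larger factor, as the plot of input against antibody change shows.

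**Figure D2:**
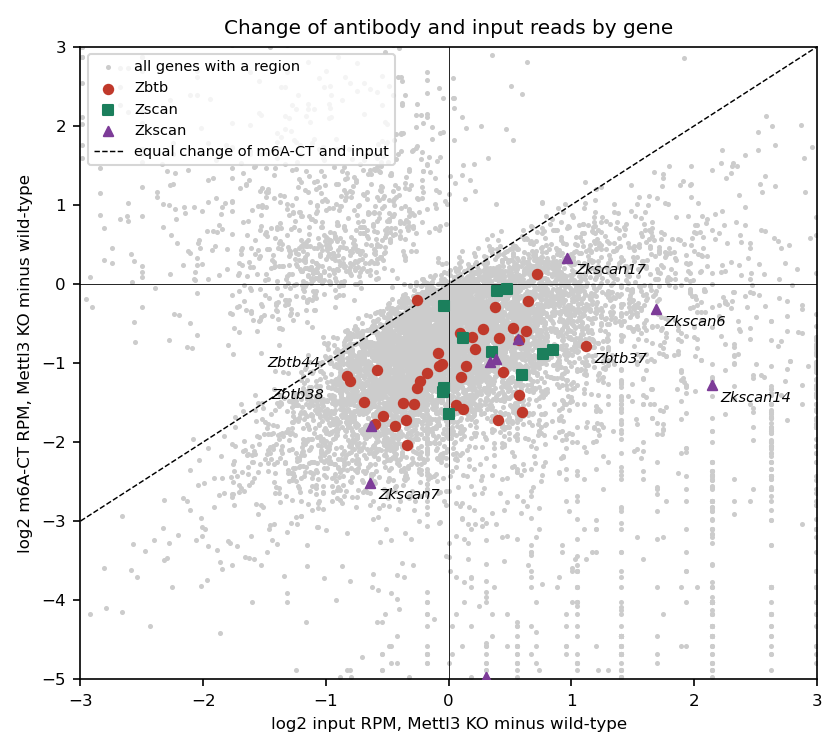
Each point is a gene, with the log2 difference of input RPM (Mettl3 KO minus wild-type) on the x axis and that of m6A-CT RPM on the y axis, for the most-read region. Grey points are all genes with a region that fall within the axes, coloured points are the 3 families, and points under the dashed line have a lower m6A-CT over input ratio in Mettl3 KO cells. All members but Zbtb11os1 lie under the line, with Zkscan14 and Zkscan6 far to the right and Zbtb44 and Zbtb38 to the left, and genes outside the plotted ranges are not drawn, with Zkscan16 placed at the lower edge.

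MeTPeak called peaks in each genotype on its own, and its deposited fold is the authors' value of m6A-CT over input in the peak, computed in a way that the sources used here do not state. A peak was listed in Mettl3 KO cells for 25 of 60 members, beside 41.4% of all genes, and in wild-type cells for 47 of 60, beside 52.1% of all genes. Of the Zfp genes, 49.4% had a peak in Mettl3 KO cells and 80.9% in wild-type cells. No member had a peak in Mettl3 KO cells alone, beside 6.09% of all genes. In wild-type cells alone 22 members had peaks, beside 16.8% of all genes: Zbtb2, Zbtb3, Zbtb5, Zbtb8a, Zbtb8b, Zbtb8os, Zbtb9, Zbtb12, Zbtb25, Zbtb26, Zbtb33, Zbtb40, Zbtb45, Zbtb49, Zkscan3, Zkscan7, Zkscan8, Zscan2, Zscan12, Zscan20, Zscan21 and Zscan29. The highest folds among those 22 were 16.0 in Zscan12, 14.5 in Zkscan8, 12.5 in Zbtb9, 9.67 in Zbtb26 and 9.50 in Zscan20. Zbtb40 and Zscan29 had the most peaks, 16 and 15, each of 5.25-fold and 5.50-fold at most.

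Peaks were present in both genotypes in 25 members, and the strongest peak of each had a lower fold in Mettl3 KO cells, 25 of 25, beside 76.7% of all such genes. Among such Zfp genes the share was 90%. Zbtb10 had the highest fold of any member in wild-type cells, 15.2 in Mettl3 KO cells against 41.0 in wild-type cells. Zbtb44 had the highest in Mettl3 KO cells, 23.3 there against 33.3 in wild-type cells. Zkscan1 had 14.0 in Mettl3 KO cells and 32.5 in wild-type cells. These 3 led both lists and were above 10-fold in Mettl3 KO cells too.

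Zbtb7a had 5.80 in Mettl3 KO cells and 25.2 in wild-type cells, and Zscan26 had 6.80 in Mettl3 KO cells and 22.0 in wild-type cells. Zbtb37 had 8.67 in Mettl3 KO cells and 12.5 in wild-type cells, and Zbtb38 had 7.50 in Mettl3 KO cells and 21.7 in wild-type cells. Over all 25 genes the ordering of the folds thus differed between genotypes: Zbtb37 was the fourth highest in Mettl3 KO cells and below many others in wild-type cells. Peaks of at least 10-fold numbered 6 of 141 in Mettl3 KO cells and 25 of 167 in wild-type cells. Over all genes they numbered 540 of 20482 in Mettl3 KO cells and 2129 of 20055 in wild-type cells. The smaller number in Mettl3 KO cells was thus not particular to the members.

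**Figure D3:**
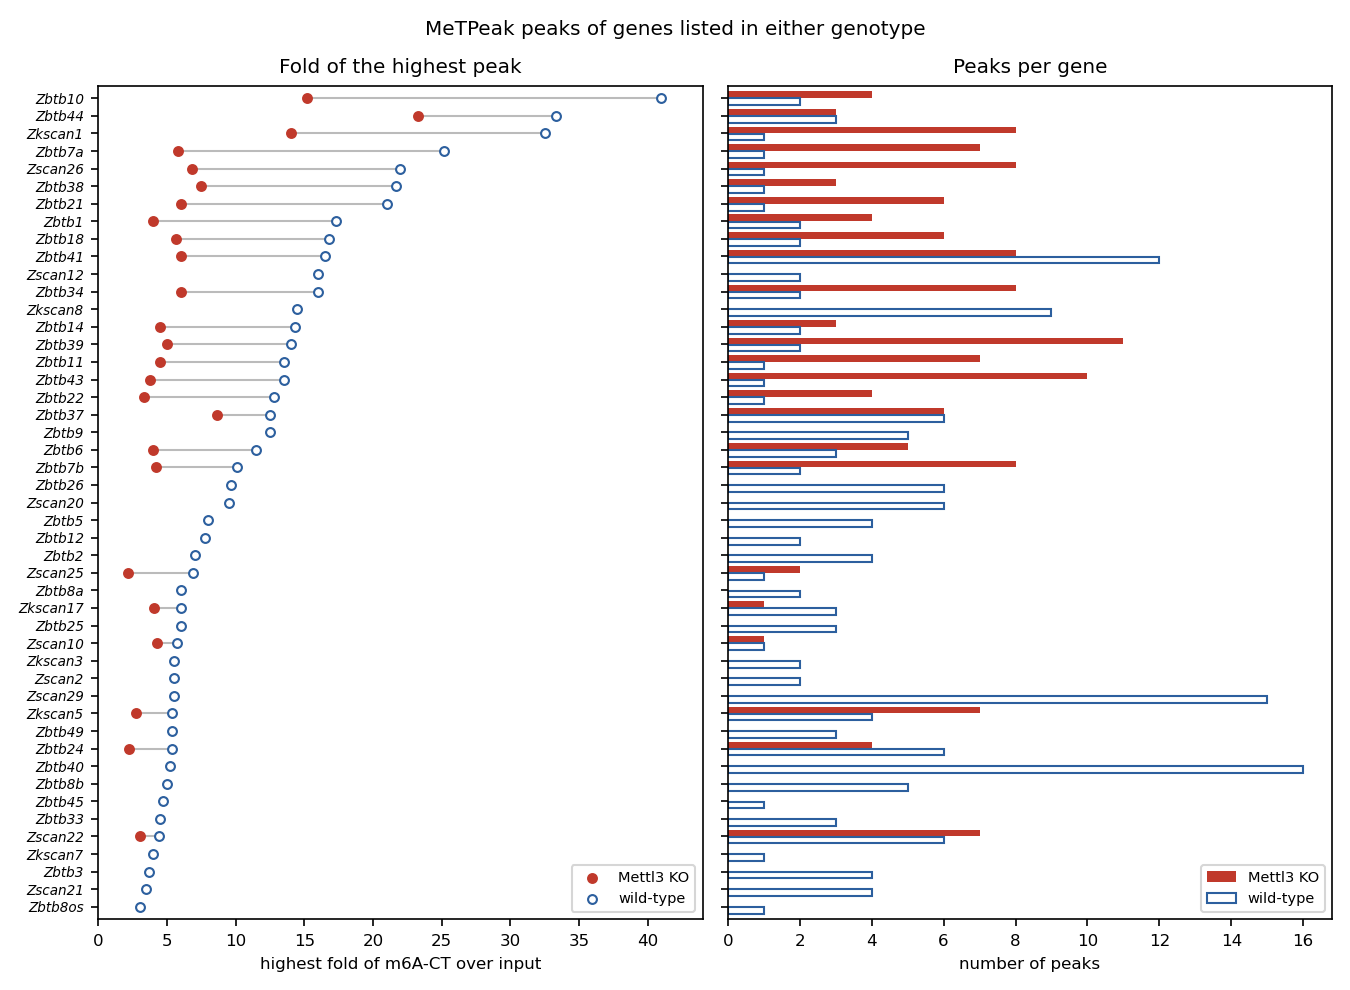
The left panel gives the highest MeTPeak fold of each gene and the right panel its number of peaks, for the 47 genes with a peak, with Mettl3 KO cells filled and wild-type cells open. Each filled point lies left of its open point, and 22 genes have an open point alone, while many genes with high wild-type folds have more, not fewer, peaks in Mettl3 KO cells.

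Long wild-type peaks met several short peaks in Mettl3 KO cells. More peaks in Mettl3 KO than in wild-type cells were listed for 19 of the 25 members, beside 54.2% of all such genes. Among such Zfp genes the share was 68.7%. Zbtb39 had 11 peaks in Mettl3 KO cells and 2 in wild-type cells, Zbtb43 had 10 in Mettl3 KO cells and 1 in wild-type cells, and Zscan26 had 8 in Mettl3 KO cells and 1 in wild-type cells. In 22 of the 25 members (88%) the summed peak length was nevertheless shorter in Mettl3 KO cells, beside 63.5% of all such genes. Among such Zfp genes it was shorter in 86%. Over all members, the 22 with wild-type peaks alone included, the peaks covered 60.7 kb in Mettl3 KO cells and 123.0 kb in wild-type cells. Over all genes, again with those of 1 genotype alone, they covered 10823 kb in Mettl3 KO cells and 14454 kb in wild-type cells. Of the members' Mettl3 KO peaks 93.6% met a wild-type peak on the same strand, and 29.3% of the wild-type peaks met a Mettl3 KO peak. Over all genes these shares were 75.7% of Mettl3 KO peaks and 52.9% of wild-type peaks. All these shares include peaks of genes listed in 1 genotype alone, which lowers the wild-type share of the members. In Zbtb39, Zbtb43 and Zscan26 the number of peaks was thus higher in Mettl3 KO cells while the highest fold and the covered length were lower.

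**Figure D4:**
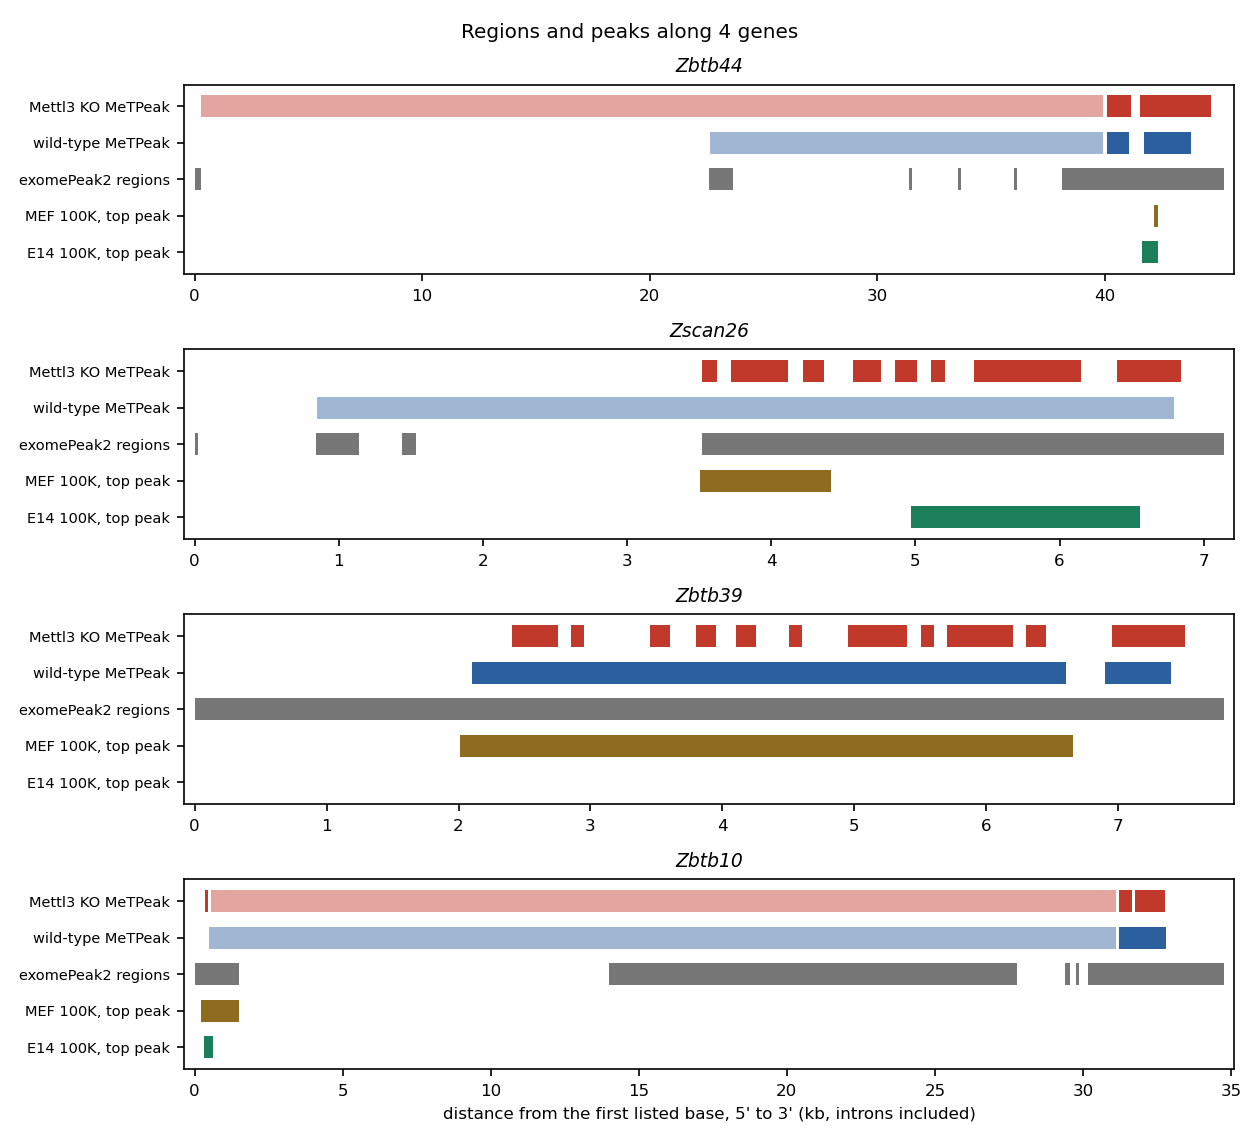
Bars show regions and peaks along 4 genes, chosen for illustration after their values were seen, as distance in kb from the first listed base in the direction of transcription with introns included. Pale MeTPeak bars are peaks of several exon blocks drawn from first to last block. In Zbtb39 and Zscan26 the long wild-type peaks lie over 11 and 8 short Mettl3 KO peaks, while in Zbtb44 and Zbtb10 similar stretches were called in both genotypes.

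The 5 MACS2 lists hold peaks with -log10 q of at least 10 and give the caller's fold enrichment at the summit, and each is 1 list per group. A member was counted when a peak overlapped its listed blocks by at least 1 bp on either strand. Those blocks come from the stem cells of the genotype set, so a stretch used in fibroblasts alone has no position here. MEF listed peaks for 38 of 60 members, beside 39.8% of all genes, and EPSC for 21, beside 27.4% of all genes. E14 listed them for 9 members at 5K nuclei, beside 14.9% of all genes, for 6 at 25K, beside 9.97%, and for 14 at 100K, beside 19%. The lists differ in length, with 38205 peaks in MEF, 12183 in EPSC and 4644 (5K), 3923 (25K) and 8052 (100K) in E14. With the 3923 strongest peaks of each list, 4 members had peaks in MEF and 4 in EPSC, while E14 gave 8 at 5K, 6 at 25K and 6 at 100K. The larger number of members in MEF thus went with its longer list and was not seen at equal length. No share over all genes is given at equal length, so members and all genes were not compared there. Peaks lay on 1 of 9 listed stem cell markers in MEF, 5 in EPSC and, in E14, 7 at 5K, 5 at 25K and 7 at 100K, and on 3 of 4 fibroblast markers in MEF and 0 in the other lists.

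Zbtb10, Zbtb7a and Zkscan1 had peaks in all 5 lists, 5% of the members beside 4.98% of all genes. Zbtb10 had the highest fold of the members in each stem cell list, 14.4 in EPSC and, in E14, 12.2 at 5K, 15.5 at 25K and 58.0 at 100K, and had 11.7 in MEF. Zbtb7a had 8.81 in MEF, 6.14 in EPSC and, in E14, 8.53 at 5K, 4.30 at 25K and 7.72 at 100K. Zkscan1 had 7.78 in MEF, 7.74 in EPSC and, in E14, 7.95 at 5K, 8.66 at 25K and 6.63 at 100K. The 3 genes were also among the 4 with the highest wild-type MeTPeak folds.

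In MEF the highest folds after Zbtb41, with 23.0 over 12 peaks, were 18.4 in Zbtb18, 13.1 in Zbtb21, 11.7 in Zbtb10 and 11.6 in Zbtb40. Zbtb41 had 9.41 in EPSC and, in E14, 7.73 at 25K and 6.90 at 100K. Zbtb18 had no EPSC peak and 5.4 in E14 at 100K. In EPSC, Zbtb38 followed with 8.26, then Zbtb6 with 7.96 and Zkscan1. Zbtb38 had 4 peaks there, against 1 in E14 at 100K, where its fold was 3.92.

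In E14 at 5K the others among the 5 highest folds were Zscan26 with 7.34 and Zbtb34 with 5.84. At 25K they were Zbtb22 with 7.15 and Zbtb21 with 4.57, beside the genes already given. At 100K they were Zscan26 with 11.5, Zbtb7b with 11, Zbtb44 with 8.91 and Zbtb7a. All 14 members with a peak in E14 at 100K also had a wild-type MeTPeak peak, beside 92.0% of all genes with such a peak, and the count is partly fixed by taking peaks on listed blocks alone. At 100K, 6 members (10%) had peaks that neither smaller input had, beside 7.30% of all genes. At 5K or 25K and not at 100K, peaks were listed for Zbtb12, Zbtb34, Zkscan17 and Zscan25, 6.67% of the members beside 6.36% of all genes.

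Against E14 at 100K, MEF and EPSC differed in which members were listed. Peaks were in MEF and in neither stem cell list at 100K for 18 members (30%), beside 17.0% of all genes: Zbtb4, Zbtb5, Zbtb9, Zbtb11os1, Zbtb14, Zbtb17, Zbtb20, Zbtb26, Zbtb33, Zbtb37, Zbtb39, Zbtb40, Zbtb49, Zkscan5, Zkscan17, Zscan2, Zscan25 and Zscan29. No member had peaks in both stem cell lists at 100K and none in MEF, beside 2.75% of all genes. Peaks in EPSC without E14 at 100K were found for 10 members (16.7%), Zscan10 and Zscan12 among them, beside 11% of all genes. Peaks in E14 at 100K without EPSC were found for Zbtb18, Zkscan3 and Zscan26, 5% of the members beside 2.64% of all genes. Zkscan3 had 3 peaks in E14 at 100K, of 7.39-fold at most, and none in the other 4 lists. With 1 list per group none of these differences was tested, and absence from a list at this threshold does not show absence of m6A. The lists were taken whole here, with 38205 peaks in MEF, 12183 in EPSC and 8052 in E14 at 100K. No such pattern is given at equal length. No list held a peak for 18 members, 30% of them, beside 51.6% of all genes.

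**Figure D5:**
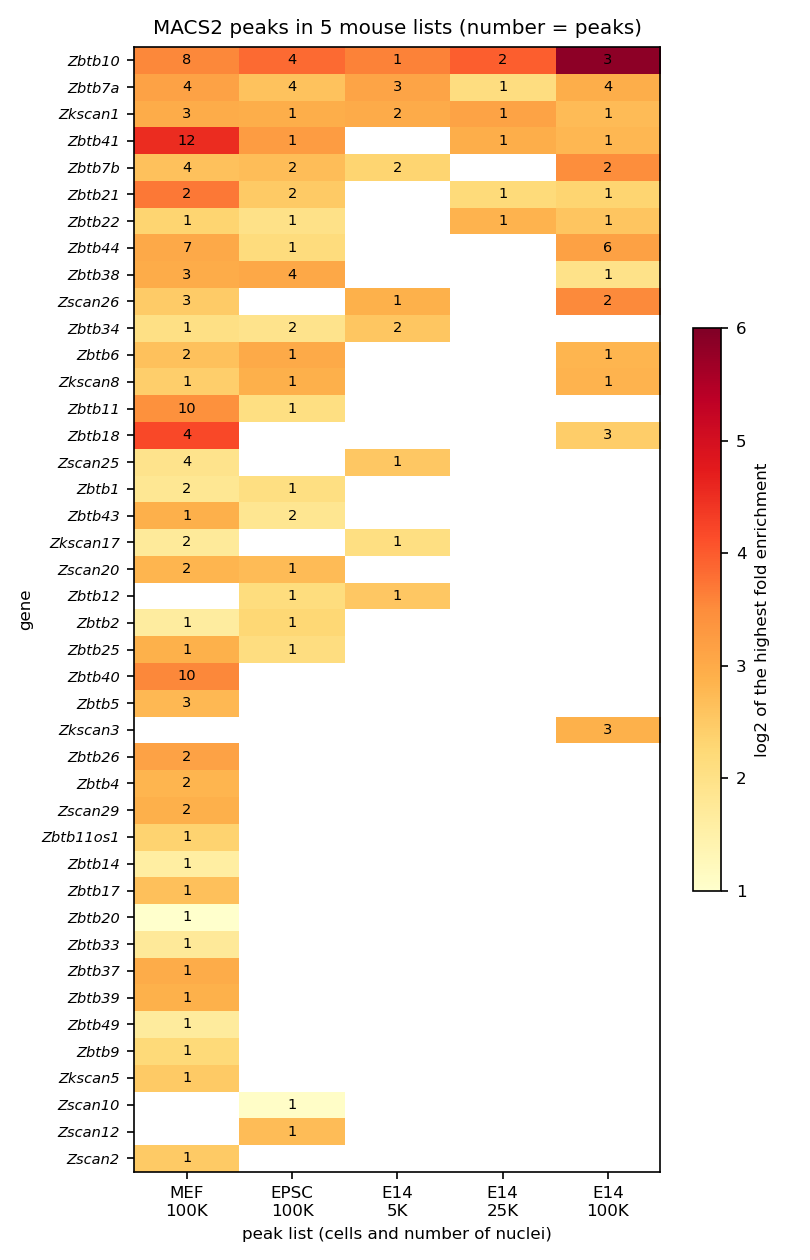
Rows are the 42 members with a peak in at least 1 of the 5 lists and columns are the lists, with colour for log2 of the highest fold enrichment and the number of peaks printed, and white for no peak. Zbtb10, Zbtb7a and Zkscan1 fill all columns, the MEF column is the fullest, and the darkest field is Zbtb10 in E14 at 100K.

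Where peaks of a member lay in several lists, they did not always sit at the same place. Of 11 members with peaks in both EPSC and E14 at 100K, the summits of the highest peaks lay within 100 bp of each other in 5, and of 13 members in both MEF and E14 at 100K this was so in 2. Of the 107 member peaks in MEF, 20.6% met an E14 peak at 100K. Of the 34 in EPSC, 44.1% met an E14 peak at 100K. Of the 30 in E14 at 100K, 83.3% met a MEF peak and 53.3% an EPSC peak. The lists differ in length and the same shares were not computed over all genes. These values therefore describe the members alone and show no trait particular to them.

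Related genes under other symbols and partner genes were read from the same table for comparison. Of 8 BTB zinc finger genes with other symbols, 6 had a region with at least 10 reads, and 5 were lower (83.3%, beside 87.7% of all genes) and 1 higher in Mettl3 KO cells in the authors' deposited table. The higher gene was Bcl6b, with 10 reads in all. Hic2, a repressor that targets BCL11A in human erythroid cells, was the best measured, with a ratio of 2.59 in Mettl3 KO cells and 6.27 in wild-type cells. Of 11 SCAN genes found under other symbols, 10 had such a region and all 10 were lower in the authors' deposited table, beside 87.7% of all genes. Zfp263 was the lowest there at -2.64 (FDR 1.11e-50), with a ratio of 2.55 in Mettl3 KO cells and 11.2 in wild-type cells.

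Partners that BTB and KRAB domains bind were listed as well. Of 26 corepressor and ubiquitin ligase genes, 23 had a region, 19 were lower (82.6%, beside 87.7% of all genes) and 4 higher in the authors' deposited table, and their median log2 fold change there was -0.69, against -1.33 over all genes. Trim28, the corepressor of KRAB proteins, was higher at 0.32 in the authors' deposited table (FDR 3.87e-07), with a ratio of 1.09 in Mettl3 KO cells and 0.608 in wild-type cells. Mta1, Mta2 and Rbx1 were the other 3 listed as higher. Cul3 was lower, with a ratio of 4.78 in Mettl3 KO cells and 7.61 in wild-type cells, and Ncor1 had 6.96 in Mettl3 KO cells and 8.51 in wild-type cells. MeTPeak peaks of Ncor1 reached 15.8-fold in Mettl3 KO cells and 53.0-fold in wild-type cells. Of the partners, 10 of 14 genes had a lower top fold in Mettl3 KO cells, counted where both genotypes had peaks (71.4%, beside 76.7% of all such genes).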

How the data were processed

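The members, gene lists and comparisons were chosen with earlier results of these data known. Trim Galore, STAR 2.7.2, MACS2 and the build mm9 are named in the submitters' processing notes, MeTPeak and exomePeak2 in the sample descriptions, without version. Pooling of replicates is not stated.

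Deposited RPM values of exomePeak2 are 1 column per genotype and library kind, whole multiples of 1 read to within 0.01 reads in at least 99.99% of values. The deposited log2 fold change compares m6A-CT over input in Mettl3 KO with wild-type, with the authors' p-value and FDR. In the MeTPeak lists the deposited fold (a ratio) is the caller's, with a deposited p-value. In the MACS2 lists the authors' fold enrichment is a ratio, and the deposited -log10 q is the caller's.

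Reads were recovered from RPM, 0.5 reads were added before log2, and intervals come from Poisson errors. Recovery and intervals were tested on simulated data. Genes needed 10 reads. The test between replicates named in the plan was not made, because the files give 1 value per group. The human list was not used. Values were given for the 10 Zbtb, 5 Zscan and 5 Zkscan genes lowest by log2 fold change, past FDR 0.05 and of 50 or more reads, the 5 highest folds of each list, members of 1 genotype or of all lists, the 5 largest input differences each way, and role lists. Other members named with values were picked for depth or contrast after their values were seen. Analyses used Python 3.11.15, pandas 2.3.3 and numpy 2.4.6.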

Additional observations from a re-analysis of the deposited data

How the results depend on the processing

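Of 60 alternative values computed, 46 were classed as the same, 14 as moved and none as reversed. Not all of the 46 were close to the reported ones. Among them, the median log2 input difference was 0.44 without Lars2 and Rn45s, against 0.13. MEF held 26 members at -log10 q of at least 20, against 38. By the counting interval without Lars2 and Rn45s, 111 regions were lower, against 148. Leaving out genes or regions that overlap another gene was added after seeing the data and moved none of the 5 values it was run for. With 1 region per gene, 58 regions in place of 148 were lower in Mettl3 KO cells by construction. On the RPM scale without Lars2 and Rn45s, 1 region in place of 0 was higher, the first of Zscan10. The median wild-type log2 ratio was 1.08 without those 2 transcripts, against 2.51 with them, since they take a larger share of input than of m6A-CT. By the same totals, an alternative added after seeing the data, 27 members in place of 55 had a ratio over 1 in Mettl3 KO cells, input was higher in Mettl3 KO cells in 33 in place of 19, and lower in 2 in place of 11. With peaks of at least 5-fold, 12 members in place of 25 had a peak in Mettl3 KO cells. With -log10 q of at least 20, EPSC held 6 members, E14 at 100K 6, E14 at 25K 2 and E14 at 5K 4. With as many peaks from each list, EPSC held 4, E14 at 100K 6 and MEF 4. No share over all genes is given for these counts by fold, q or list length. No paired analysis was possible because the files give 1 value per group and no columns per replicate. For the same reason leaving out each replicate was not run. Reads limit the regions under 50 reads, of which the members had 4.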

Other observations

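The strongest signal of the families in the peak lists was a stretch in the first listed region of Zbtb10, singled out after its values were seen. In E14 at 100K it was a peak of 302 bp, chr3:9250896-9251197 of mm9, with a fold of 58.0 and -log10 q of 893, the rank 69 by fold among 8052 peaks. In MEF the peak was 1307 bp long with -log10 q of 1144, in EPSC 292 bp long with -log10 q of 514, and in E14 at 5K and 25K it had -log10 q of 50.5 and 101. In the 4 stem cell lists the peak ended at the same base, 9251197. In the genotype set the region around it had 29.1 m6A-CT RPM in Mettl3 KO cells and 44 in wild-type cells, and MeTPeak listed a peak of 101 bp and 1.80-fold and then, from base 9251117, a peak of 15.2-fold over 6 blocks in Mettl3 KO cells, against a peak of 41.0-fold over 6 blocks from base 9251067 in wild-type cells. The cause of the shared edge was not tested.

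The genome holds members in 9 groups of neighbours no more than 200 kb apart, which cover 22 of the 58 genes with a region. Neighbours could differ in level: on chromosome 5, Zkscan1 and Zscan21 lie within 33.7 kb, with a wild-type ratio of 15.0 in Zkscan1 and 2.06 in Zscan21. On chromosome 13, Zscan12, Zkscan3, Zscan26 and Zkscan8 lie within 157 kb, with wild-type ratios of 5.76 to 19.0 and log2 fold changes of -2.10 to -1.57 in the authors' deposited table.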
